A study of Mus musculus with 32 samples.

Results

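APOE4 was compared with APOE3 in mice that had no brain impact: 7 APOE4 sham animals against 7 APOE3 sham animals, 14 of the 32 RNA-seq libraries of a study of traumatic brain injury (TBI). The members are the libraries titled E4-S and E3-S. The libraries of animals E2073 and F1372, whose labels disagree, were left out. APOE4 sham animals carried human APOE4 on both alleles (APOE4+/+) and APOE3 sham animals human APOE3 on both alleles (APOE3+/+), in each case by targeted replacement on a C57BL/6 background, so the mouse gene was replaced in every group. All 14 animals were anaesthetised and had a 4.5 mm opening drilled over the left parietal cortex. None received the impact that was given to the 8 APOE4 TBI and 8 APOE3 TBI animals used here for comparison. Day 14 was the only time. Cortex and hippocampus were frozen together from a 1.5 mm coronal slice at the surgical site, so values are bulk averages over both regions. An age in words or numbers, and whether the genotypes were bred as littermates or as separate colonies, are not given in the sources used here, so the allele cannot be told apart from any other fixed difference between the lines. The titles carry a letter, M for 4 APOE4 and 3 APOE3 animals and F for 3 APOE4 and 4 APOE3 animals. The labels do not spell it out, and it was kept as a covariate. Every title also carries the letter Y, which the labels do not explain.

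Apolipoprotein E is the main lipid carrier of the brain, made chiefly by astrocytes and taken up through receptors of the low-density lipoprotein family. Human APOE4 differs from APOE3 by a single amino acid and is the strongest common genetic risk factor for late-onset Alzheimer's disease. Astrocytes and microglia are largely at rest in brain without a lesion, and both change many genes after injury; the sham comparison asks how the genotypes differ when no impact was given.

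The 14 libraries held 2392498 to 7152673 counts in APOE4 and 2262242 to 8109492 counts in APOE3 over the genes of the deposited table, and these totals did not separate the genotypes (means 4764210 and 5057570, exact permutation test, two-sided, p = 0.793). Each genotype had 3 shallow libraries (at most 3595246 counts) and 4 deep ones (at least 4858861). A library gave 212 counts for the median gene, and Pearson's r of log2 CPM between any 2 sham libraries ran from 0.988 to 0.995. The table holds 5582 genes that the authors listed for their injury contrast. Of these, 5151 had enough counts to be tested in shams and 431 did not. Markers of neurons and astrocytes were read as a check for brain tissue. They do not show which regions were dissected. The excitatory neuron genes Slc17a7 (2449 to 3226 CPM in APOE4, 2934 to 3319 CPM in APOE3) and Camk2a (6467 to 8188 CPM in APOE4, 6692 to 8413 CPM in APOE3) were read in every library, and so was the astrocyte gene Aldoc (1406 to 1714 CPM in APOE4, 1610 to 1793 CPM in APOE3). The 4 tested genes of thalamus and striatum, regions outside the stated dissection, summed to 165 to 375 CPM in APOE4 and 180 to 292 CPM in APOE3. CPM here is the usual depth-scaled count, relative to the total of the tested genes in a library after TMM scaling.

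Few of the tested genes, all from the authors' injury list, passed the threshold between APOE4 and APOE3 without injury. Of the 5151 tested genes, 23 passed an adjusted p of 0.05 (0.447%; edgeR's quasi-likelihood test with Benjamini-Hochberg adjustment), 17 higher in APOE4 (0.33%) and 6 lower (0.116%). Differences past 2-fold were limited to Serpina3m and Serpina3n among these 23. The other 15 rises were all smaller than 1.5-fold, with Atf4 the largest at 1.43-fold. Of the 6 lower genes Faim2 changed least, as it fell by 12%, and Pon2 most, as it fell by 31.8%. At an unadjusted p under 0.05 there were 546 genes (10.6%), 288 of them higher (5.59%) and 258 lower (5.01%), and the signs of all tested genes split 2575 positive to 2576 negative. If no gene differed, a proportion of about 0.05 would have such a p, so a gene that did not pass is not read as unchanged. The median 95% interval reached 0.16 to each side on the log2 scale. That interval is not adjusted for the number of genes. Passing the adjusted threshold took a far smaller p, 0.000211 in edgeR for Mt3, the last gene to pass. For a gene of median spread, differences larger than 0.16 could therefore also be missed here. In 16 of the 23 genes no APOE4 animal overlapped any APOE3 animal, 12 with APOE4 above and 4 with APOE4 below, against 30 such genes among all tested (0.582%). The number of genes past the threshold depended on single animals. It was 7 without APOE3 replicate 2, 8 without APOE4 replicate 6, 11 without APOE4 replicate 5, 12 without APOE4 replicate 1, 14 without APOE3 replicate 1, 15 without APOE4 replicate 7 and 35 without APOE4 replicate 2. DESeq2 called 66 genes, 22 of them among the 23. Serpina3m, Serpina3n, Pon2, Nudt3, Atf4, Adar and Asns passed in all 14 fits that left out 1 animal, and the other 16 passed in 1 of 14 (Btrc) to 12 of 14 (Hrk). Without APOE3 replicate 2 the 7 genes were exactly these, so leaving out that animal ended the call of each of the other 16. Genes just outside the threshold included Pacs1 (-0.17), Mllt11 (-0.18) and Rab14 (0.15), each with an adjusted p of 0.0501 by edgeR, while Mt3 was the last to pass, at 0.0472.

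**Figure D1:**
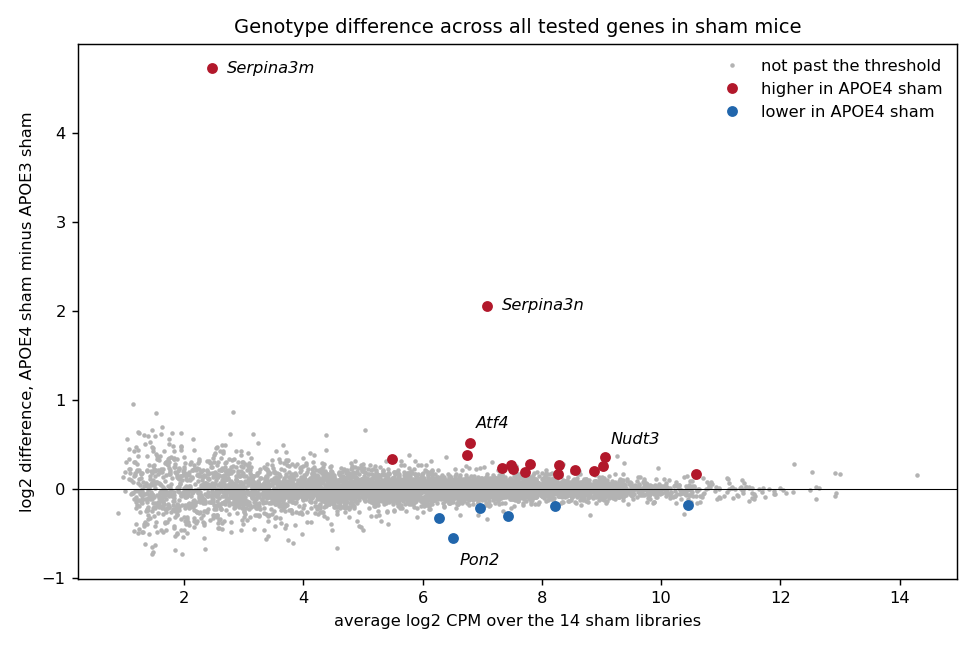
Log2 difference of each of the 5151 tested genes (APOE4 sham minus APOE3 sham, vertical) against its average level (log2 CPM over the 14 libraries, horizontal). The 17 genes higher in APOE4 are red, the 6 lower are blue and the rest are grey; Serpina3m at 4.72 and Serpina3n at 2.06 stand far above the others.

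The Serpina3 genes gave the largest differences. They encode secreted inhibitors of serine proteases, lie side by side on chromosome 12 and are the mouse relatives of human SERPINA3, also called alpha-1-antichymotrypsin. Serpina3n, which is a marker of reactive astrocytes in mouse brain (NCBI gene 20716, chr12:104406646-104414334, GRCm38.p6), had a lowest, median and highest level of 123, 188 and 321 CPM in APOE4 shams, against 32.9, 51.6 and 65.7 CPM in APOE3 shams. Every APOE4 animal lay above every APOE3 animal, and the APOE4 animals were more spread out. The means were 216 ± 75.9 CPM in APOE4 and 52.8 ± 11.4 CPM in APOE3 (SD, n = 7 each), a rise of 4.17-fold (log2 difference 2.06 ± 0.20 SE, edgeR adjusted p = 5.7e-06). In bulk tissue, fewer cells of a type and less RNA per cell cannot be told apart, here and for every gene that follows.

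Serpina3m (NCBI gene 20717, chr12:104387157-104394259, GRCm38.p6), which lies beside Serpina3n in that cluster, had a lowest, median and highest level of 4.67, 9.68 and 15.7 CPM in APOE4 shams, against 0.144, 0.427 and 0.89 CPM in APOE3 shams. All APOE4 animals were again above all APOE3 animals. The counts behind these levels were 21 to 81 per library in APOE4, 334 in all, and 1 to 3 per library in APOE3, 13 in all. The ratio of the summed CPM was 27.3, with a counting interval (95%) of 15.7 to 51.8, and edgeR gave a log2 difference of 4.72 ± 0.37 SE (adjusted p = 3.67e-07). Within the shallow libraries alone the log2 difference was 3.67 for Serpina3m and 1.93 for Serpina3n, and within the deep libraries 5.19 for Serpina3m and 2.05 for Serpina3n, all past the threshold.

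The other listed genes of the cluster had few reads. Serpina3f had 47 counts over the 7 APOE4 shams and 4 over the 7 APOE3 shams, a ratio of summed CPM of 12.5 with a counting interval of 4.56 to 47.7. Serpina3i had 32 counts in APOE4 and 0 in every APOE3 library. The ratio was 11.3 when APOE3 was set to a floor of 3 counts over the group. The counting interval (95%) of its ratio began at 8.69 and had no upper end. Both were below the filter on low counts. Without that filter edgeR gave adjusted p values of 0.0016 for Serpina3f and 0.0288 for Serpina3i. Intervals and floors cover counting error only. Serpina3g had the opposite sign, with 61 counts in APOE4 and 84 in APOE3 (log2 difference -0.39 ± 0.38 SE, edgeR adjusted p = 0.837), and its 95% interval ran from -1.19 to 0.42. The Serpina3 genes share part of their sequence. Of all 50-base words in the longest annotated transcript, 6.75% were shared with another gene of the cluster for Serpina3n, 9.0% for Serpina3f, 12% for Serpina3i, 15.4% for Serpina3g and 19.1% for Serpina3m. For Serpina3m the closest member was Serpina3k, whose exons overlap it on the same strand. Reads from shared stretches could be split between members, so the values of the low genes are uncertain.

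Of the 9 tested genes on the reactive astrocyte list 1 passed, Serpina3n itself, and Serpina3n was higher and Cd44 lower at an unadjusted p under 0.05. Of all tested genes 0.447% passed and 10.6% had such an unadjusted p. The remaining 8 had a median log2 difference of -0.01, and their summed level was 586 to 825 CPM in APOE4 and 691 to 914 CPM in APOE3. Gfap, the intermediate filament of astrocytes, had 411 to 591 CPM in APOE4 and 494 to 703 CPM in APOE3 (log2 difference -0.15, unadjusted p = 0.069). Cd44, a receptor for hyaluronan, had a log2 difference of -0.51 (unadjusted p = 0.0198, edgeR adjusted p = 0.381) and Aspg, an asparaginase, one of 0.42 (unadjusted p = 0.0579). Vim, another filament gene of reactive astrocytes, had a log2 difference of -0.03 and the complement gene C4b one of 0.01. Homeostatic astrocyte genes had a median of -0.03 over 10 tested genes, with 0 past the threshold in edgeR and 1 at an unadjusted p under 0.05.

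**Figure D2:**
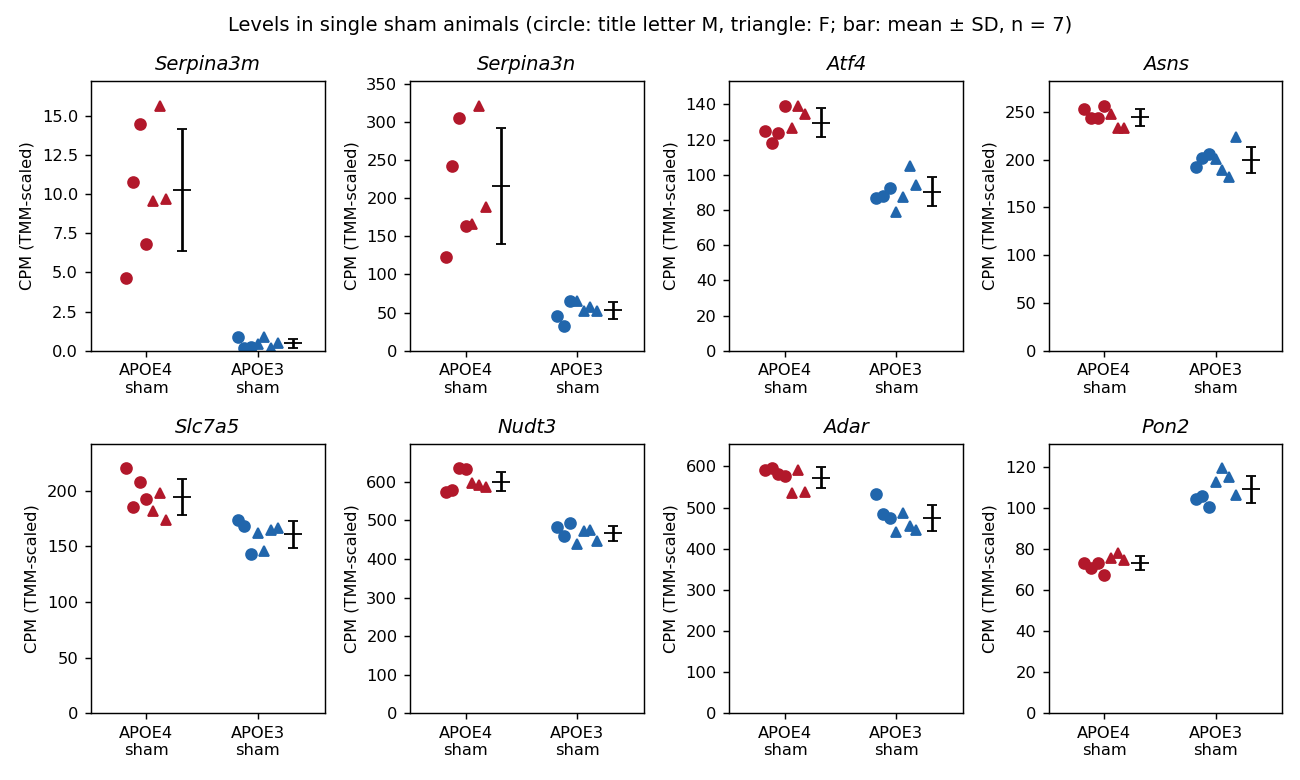
Level in each sham animal (CPM after TMM scaling, axes from 0) of 8 genes, with APOE4 in red on the left and APOE3 in blue on the right; circles are animals titled M, triangles those titled F, and bars give the mean ± SD of 7 animals. In all 8 panels the genotypes do not overlap, with Pon2 lower and the other 7 genes higher in APOE4.

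A second group of rises held Atf4 and genes of amino acid supply. Atf4 encodes the transcription factor whose translation increases when the integrated stress response is active, and its known targets supply, import and charge amino acids. Atf4 (NCBI gene 11911, chr15:80255184-80257545, GRCm38.p6) had 118, 126 and 139 CPM as lowest, median and highest in APOE4 shams, against 79.1, 87.9 and 105 CPM in APOE3 shams. The genotypes did not overlap. Atf4 rose 1.43-fold (0.51 ± 0.06 SE, edgeR adjusted p = 3.43e-05).

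Asns, the enzyme that makes asparagine (NCBI gene 27053, chr6:7675165-7693209, GRCm38.p6), had 233, 244 and 257 CPM in APOE4 and 181, 201 and 224 CPM in APOE3. It rose 1.22-fold without overlap (0.28 ± 0.05 SE, edgeR adjusted p = 0.00402). Slc7a5, which imports large neutral amino acids (NCBI gene 20539, chr8:121881146-121907686, GRCm38.p6), had 174, 193 and 220 CPM in APOE4 and 143, 164 and 174 CPM in APOE3. Its highest APOE3 animal lay just under its lowest APOE4 animal. Slc7a5 rose 1.2-fold (0.27 ± 0.06 SE, edgeR adjusted p = 0.0385), but passed in only 3 of the 14 fits that left out 1 animal, with adjusted p values of 0.0266 to 0.101. The libraries with which it failed to pass when left out were APOE3 replicates 1 to 6 and APOE4 replicates 1, 3, 4, 5 and 6.

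Across the list of Atf4 targets and amino acid genes, 22 were tested, 3 passed and all 3 were higher, against 0.447% of all tested genes. The list was chosen with earlier results of these data known, and Atf4 itself is on it and among the 3. Its share is therefore not independent support. The signs were 18 positive and 4 negative, with a median log2 difference of 0.12, beside a median of -0.00 over all tested genes. At an unadjusted p under 0.05 there were 9 higher and 1 lower, against 5.59% higher and 5.01% lower of all tested genes. Members short of the threshold included enzymes that charge transfer RNA: Gars (0.17, adjusted p = 0.0537), Nars (0.15, 0.095) and Sars (0.14, 0.261), all by edgeR. Others were at or near 0, among them the serine synthesis genes Phgdh (0.00) and Psat1 (0.03) and the tryptophanyl-tRNA synthetase gene Wars (0.01). Nupr1 had the lowest value of the list, -0.47 (edgeR unadjusted p = 0.0575, adjusted p = 0.492). Its mean level was low, 2.85 CPM in APOE4 and 4.37 CPM in APOE3. Pck2, a mitochondrial enzyme of gluconeogenesis on the same list, had a log2 difference of -0.31 (edgeR adjusted p = 0.101). Slc3a2, the partner chain of Slc7a5, had one of 0.10 (edgeR adjusted p = 0.381). The chaperone list had 4 tested genes with a median of -0.00, and 0 passed in edgeR or had an unadjusted p under 0.05.

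Promoter sequence was read for the 23 genes to show where the core of the known ATF4 response element occurs in them. The core was searched as TGATGNAA on both strands in the 250 bases before a gene's first listed start, in RefSeq sequences of GRCm38.p6. A sequence was matched for 19 of the 23 genes. For 13 of these, the 3 printed here included, the listed start is the outer end of the annotated gene, and for the other 6 it is not. Of the 19, 3 held the core, Asns, Frmd4b and Hrk. Of all 27025 promoters of the same length 3.53% held it. Asns and Frmd4b were higher in APOE4 and Hrk, a promoter of apoptosis, was lower, so the 3 carriers did not share a direction. In human ASNS an element of this kind is the known amino acid response site. A match is a string of letters and not a measured binding site. The 3 promoters are printed 5′ to 3′ in the direction of the gene with the core in capitals, from chr6:7693210-7693459 on the minus strand for Asns, chr6:97617658-97617907 on the minus strand for Frmd4b and chr5:118169514-118169763 on the plus strand for Hrk. The first base of the core lies at -23 in Asns, -172 in Frmd4b and -114 in Hrk, counted from the gene's start.
Asns: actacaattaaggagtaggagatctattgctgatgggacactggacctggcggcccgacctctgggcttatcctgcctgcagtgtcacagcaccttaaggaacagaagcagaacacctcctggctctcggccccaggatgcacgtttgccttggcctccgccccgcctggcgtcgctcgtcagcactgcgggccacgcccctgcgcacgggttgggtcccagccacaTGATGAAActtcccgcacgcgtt
Frmd4b: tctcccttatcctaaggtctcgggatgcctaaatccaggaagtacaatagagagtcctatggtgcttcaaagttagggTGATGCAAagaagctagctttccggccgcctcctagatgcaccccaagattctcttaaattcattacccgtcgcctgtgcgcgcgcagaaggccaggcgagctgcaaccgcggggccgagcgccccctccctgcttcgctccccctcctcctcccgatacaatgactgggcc
Hrk: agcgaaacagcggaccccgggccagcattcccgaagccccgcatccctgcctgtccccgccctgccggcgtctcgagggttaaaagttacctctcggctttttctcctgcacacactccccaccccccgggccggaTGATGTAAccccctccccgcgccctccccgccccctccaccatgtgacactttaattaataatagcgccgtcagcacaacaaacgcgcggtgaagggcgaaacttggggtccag

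A known binding motif of STAT factors, TTCNNNGAA on both strands, was also searched, because reactive astrocyte genes are known STAT3 targets. It was found in Dusp14, Itpka and Vps50, again 3 of 19, where 7.18% of all promoters held it. Serpina3n, the reactive astrocyte gene among the 19, had 0 matches. Its searched window ended inside the annotated gene. Serpina3m had no promoter sequence and was not searched.

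Pon2 gave the largest fall. It encodes an intracellular lactonase of the paraoxonase family, known for limiting oxidative damage in mitochondria (NCBI gene 330260, chr6:5264620-5298345, GRCm38.p6). Its levels were 67.7, 73.3 and 78.5 CPM as lowest, median and highest in APOE4, against 101, 106 and 120 CPM in APOE3. The genotypes were wide apart relative to the spread within each. Pon2 fell by 31.8% (log2 difference -0.55 ± 0.04 SE, edgeR adjusted p = 3.67e-07), and it passed under every alternative model and subset at the same threshold. An annotated RNA, Gm44424, overlaps its exons on the opposite strand, and the strand setting of the counting is not given in the sources used here.

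Pon2 and Asns have changed neighbours. Chromosome 6 held 6 of the 23 genes among 295 tested (2.03%, against 0.447% over all chromosomes). Of these, 5 lay within 5.28 Mb, chr6:3498393-8778540 (GRCm38.p6), where 13 genes were tested. That stretch was drawn from the first to the last of these 5 genes, so their share within it is fixed by that choice. Vps50 and Asns were higher and Pon2, Glcci1 and Ica1 were lower in APOE4. The other 8 tested genes of that stretch did not pass, with log2 differences from -0.10 (Umad1) to 0.27 (Bet1). Pon3, the paralogue next to Pon2, had a log2 difference of 0.19 ± 0.30 SE at 4.92 ± 2.97 CPM in APOE4 and 4.09 ± 0.83 CPM in APOE3 (SD, n = 7 each).

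Ica1, a membrane-bending protein of dense-core vesicles, had 62.0, 66.4 and 78.2 CPM in APOE4 and 72.9, 86.5 and 99.8 CPM in APOE3. Of the APOE4 animals 5 of 7 lay below the lowest APOE3 animal. Ica1 fell by 20.3% (-0.33 ± 0.07 SE, edgeR adjusted p = 0.0385). Glcci1, a glucocorticoid-induced transcript, had 109, 117 and 120 CPM in APOE4 and 124, 135 and 142 CPM in APOE3, with no overlap, and fell by 13.8% (-0.21 ± 0.04 SE, edgeR adjusted p = 0.0233). Glcci1 shares exon positions with annotated RNAs on both strands. Vps50, a subunit of a complex that recycles endosomes, rose 1.17-fold (0.23 ± 0.05 SE, edgeR adjusted p = 0.0331), with 6 of 7 APOE4 animals above the highest APOE3 animal. Ica1 passed in 6, Glcci1 in 9 and Vps50 in 4 of the 14 fits that left out 1 animal. The sixth gene, Frmd4b, which encodes a scaffold protein with a FERM domain, lies far along the chromosome at chr6:97286867-97617657 and rose 1.26-fold (0.33 ± 0.07 SE, edgeR adjusted p = 0.0245).

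**Figure D3:**
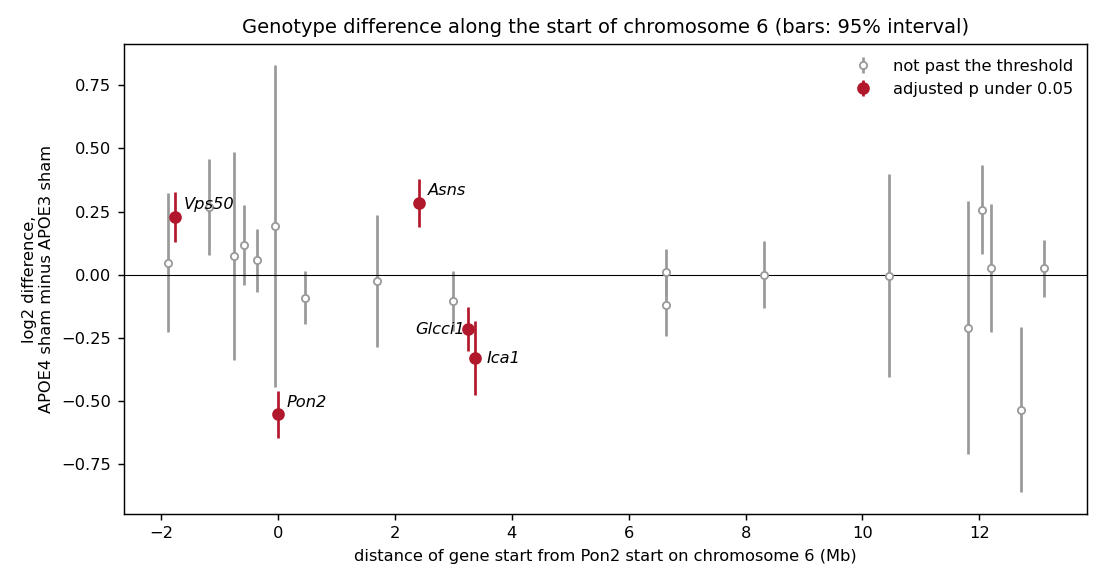
Log2 difference between APOE4 and APOE3 shams (vertical, bars give the 95% interval) of each tested gene near the start of chromosome 6, by distance of its start from that of Pon2 (horizontal, Mb). The 5 filled genes passed the threshold, Vps50 and Asns above 0 and Pon2, Glcci1 and Ica1 below it, among open symbols for genes that did not.

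The genes around the replaced locus were read as well. Within 5 Mb on either side of Apoe on chromosome 7, 30 genes were tested and 0 passed in edgeR (0.447% of all tested genes), while 3 had an unadjusted p under 0.05 (10.6% of all tested genes). With so few genes, these counts cannot be told apart from the shares over all genes. Their log2 differences ran from -0.17 for Fosb to 0.63 for Zfp296 (unadjusted p = 0.00955).

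Nudt3, Nudt4 and Itpka act on inositol phosphates, and all 3 rose. Nudt3 and Nudt4 encode hydrolases of diphosphoinositol phosphates, and Nudt3 also removes caps from messenger RNA. Nudt3 (NCBI gene 56409, chr17:27579382-27623452, GRCm38.p6) had 574, 593 and 635 CPM in APOE4 and 440, 472 and 494 CPM in APOE3. The genotypes did not overlap, and the rise was 1.28-fold (0.35 ± 0.04 SE, edgeR adjusted p = 1.09e-05). Nudt3 shares exon positions on the same strand with the annotated readthrough RPS10-NUDT3. Nudt4 had 389, 400 and 428 CPM in APOE4 and 306, 359 and 373 CPM in APOE3 and rose 1.16-fold without overlap (0.21 ± 0.04 SE, edgeR adjusted p = 0.0263). Itpka, a kinase of dendritic spines that phosphorylates inositol trisphosphate, had 298, 344 and 372 CPM in APOE4 and 267, 280 and 312 CPM in APOE3. It rose 1.2-fold (0.27 ± 0.05 SE, edgeR adjusted p = 0.0233), with 6 of 7 APOE4 animals above the highest APOE3 animal. Nudt4 passed in 7, Itpka in 9 and Nudt3 in all of the 14 fits that left out 1 animal. These 3 genes were grouped after their values were seen.

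Adar, which edits adenosine to inosine in double-stranded RNA and has an interferon-induced form, was the only interferon response gene of 20 tested to pass, where 0.447% of all tested genes did. It had 534, 582 and 596 CPM in APOE4 and 441, 475 and 533 CPM in APOE3. The lowest APOE4 animal and the highest APOE3 animal nearly met. Adar (NCBI gene 56417, chr3:89714469-89753455, GRCm38.p6) rose 1.2-fold (0.26 ± 0.04 SE, edgeR adjusted p = 0.00143). An exon of Chrnb2 overlaps it on the opposite strand. In the interferon list 15 of 20 log2 differences were positive with a median of 0.16, and 2 genes had an unadjusted p under 0.05, Adar and Gbp3 (0.35, unadjusted p = 0.021), a share close to the 10.6% of all tested genes. The summed level of the list was 780 to 915 CPM in APOE4 and 706 to 766 CPM in APOE3, and Adar made up most of it. Usp18, a negative regulator of interferon signalling, had the largest value of the list, 0.64 (unadjusted p = 0.0616).

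Mfn2, the outer membrane protein that fuses mitochondria, had 479, 500 and 534 CPM in APOE4 and 394, 446 and 462 CPM in APOE3. It rose 1.15-fold without overlap (0.20 ± 0.04 SE, edgeR adjusted p = 0.0198) and passed in 11 of the 14 fits that left out 1 animal. It did not pass without APOE3 replicate 2 (adjusted p = 0.0663), APOE4 replicate 6 (0.0502) or APOE4 replicate 7 (0.0702). Of the 11 tested genes of mitochondrial fusion and respiration it was the only one to pass, where 0.447% of all tested genes did. The list had 9 positive values and a median of 0.05, and Dnm1l, which divides mitochondria, had -0.04. At an unadjusted p under 0.05 by edgeR, 3 of the list were higher (Mfn2, Ndufs1 and Atp5b) and 0 lower. Of all tested genes 5.59% were higher and 5.01% lower at that p. The 5 tested genes of the mitochondrial genome, chosen after their values were seen, had log2 differences from 0.16 for COX1 to 0.28 for Rnr1. None of these 5 passed in edgeR (adjusted p from 0.0537 to 0.327), and all 5 had an unadjusted p under 0.05, as did 10.6% of all tested genes. In injured animals the values were -0.03 for COX1, -0.00 for ND1, 0.02 for ND2, -0.06 for Rnr1 and -0.18 for Rnr2. The genotype by injury interaction had an unadjusted p of 0.00688 for Rnr1 and 0.00489 for Rnr2 by edgeR, with an adjusted p of 1 for both.

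Faim2, Hrk and Mt3 were lower in APOE4. Faim2, a neuronal inhibitor of death signalling through Fas, had 1254, 1287 and 1405 CPM in APOE4 and 1413, 1451 and 1577 CPM in APOE3. It fell by 12% without overlap (-0.18 ± 0.03 SE, edgeR adjusted p = 0.0168). Hrk, a BH3-only activator of apoptosis in neurons, had 142, 153 and 176 CPM in APOE4 and 169, 188 and 220 CPM in APOE3. It fell by 18.9% (-0.30 ± 0.06 SE, edgeR adjusted p = 0.0198), with 6 of 7 APOE4 animals below the lowest APOE3 animal. Faim2 did not pass without APOE3 replicate 2 (adjusted p = 0.0663), APOE4 replicate 5 (0.0516) or APOE4 replicate 6 (0.0502), and Hrk did not without APOE3 replicate 2 (0.0663) or APOE4 replicate 6 (0.0665). Mt3, the metallothionein of brain that binds zinc and copper, had 246, 279 and 292 CPM in APOE4 and 294, 317 and 356 CPM in APOE3. It fell by 12.4% without overlap (-0.19 ± 0.04 SE, edgeR adjusted p = 0.0472), but passed in only 3 of the 14 fits that left out 1 animal. It failed to pass without APOE3 replicate 1, 2, 4, 5, 6 or 7 and without APOE4 replicate 1, 3, 5, 6 or 7, with adjusted p values up to 0.116.

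The remaining 6 genes were all higher in APOE4, by small amounts. Rnf6, a RING-type ubiquitin ligase, rose 1.18-fold (edgeR adjusted p = 0.0198) and Btrc, which picks substrates for the SCF ubiquitin ligase, had a log2 difference of 0.16 (0.0385). Extl2, a glycosyltransferase of heparan sulfate assembly, rose 1.14-fold with no overlap, at 207 to 235 CPM in APOE4 and 187 to 202 CPM in APOE3. Dusp14, a phosphatase of MAP kinases, rose 1.30-fold with 5 of 7 APOE4 animals above the highest APOE3 animal. Tspyl4, of a nucleosome assembly protein family, rose 1.13-fold without overlap, at 1523 to 1822 CPM in APOE4 and 1383 to 1506 CPM in APOE3. Frmd4b has been given with chromosome 6. Of these, Extl2 and Rnf6 passed in 11, Frmd4b in 8, Tspyl4 in 6, Dusp14 in 4 and Btrc in 1 of the 14 fits that left out 1 animal.

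None of the genes the study is built around passed the threshold. Reads assigned to Apoe gave 31.3, 37.4 and 44.1 CPM as lowest, median and highest in APOE4 and 33.5, 35.9 and 40.3 CPM in APOE3. The genotypes overlapped, and the log2 difference was -0.00 ± 0.09 SE with a 95% interval of -0.18 to 0.18 (edgeR adjusted p = 0.999). These are counts assigned to the mouse gene in animals that carry human APOE. How reads of human APOE were treated is not given in the sources used here, so the values are not read as levels of APOE3 or APOE4. Trem2, a lipid-sensing receptor of microglia, had 17.6, 18.4 and 21.7 CPM in APOE4 and 17.8, 18.6 and 22.8 CPM in APOE3 (0.00 ± 0.09 SE, 95% interval -0.18 to 0.18, edgeR adjusted p = 0.998). Tyrobp, its signalling adaptor, had 17.6, 19.1 and 24.2 CPM in APOE4 and 22.7, 26.1 and 27.0 CPM in APOE3. Of the APOE4 animals 4 of 7 lay below the lowest APOE3 animal, but Tyrobp did not pass (-0.28 ± 0.09 SE, edgeR adjusted p = 0.245). Its 95% interval, -0.47 to -0.09, left out 0 (edgeR unadjusted p = 0.00574), unlike those of Apoe and Trem2.

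The lists of Trem2-Tyrobp signalling, microglia, complement and lipid genes held no gene past the threshold in edgeR. The Trem2-Tyrobp signalling list had 13 tested genes, 10 of them negative, a median of -0.05 and 2 genes lower at an unadjusted p under 0.05, Tyrobp and Pik3cg. Over all tested genes 5.59% were higher and 5.01% lower at that p. Homeostatic microglia genes had a median of -0.06 over 12 genes and disease-associated microglia genes one of -0.02 over 12. Among the disease-associated genes Ccl6, a chemokine, had 0.67 (unadjusted p = 0.0203, edgeR adjusted p = 0.381) and Tyrobp was the 1 lower at an unadjusted p under 0.05. Their summed levels were 788 to 962 CPM in APOE4 and 830 to 1075 CPM in APOE3 for homeostatic microglia, and 1040 to 1196 CPM in APOE4 and 1098 to 1244 CPM in APOE3 for disease-associated microglia. The ranges overlapped in both lists. Complement genes had a median of 0.01 over 13 genes, with 1 lower at an unadjusted p under 0.05, C1qa, the first subcomponent of the classical pathway (-0.19).

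Among 14 genes of lipid efflux and lipoprotein handling the signs split 7 to 7 with a median of 0.00, and 1 gene, Clu, another brain apolipoprotein, had an unadjusted p under 0.05 (-0.09). Cholesterol synthesis genes had a median of -0.02 over 20 genes, 14 of them negative, with 1 higher and 1 lower at an unadjusted p under 0.05. Of all tested genes 10.6% had such a p. Lysosome genes split 10 to 10 over 20 genes. The markers of other cell types that the dissection could bring in also held no gene past the threshold. Excitatory neuron genes summed to 21483 to 25907 CPM in APOE4 and 22807 to 25594 CPM in APOE3, endothelial genes to 342 to 389 CPM in APOE4 and 319 to 390 CPM in APOE3, and meningeal genes to 1686 to 2456 CPM in APOE4 and 1381 to 3072 CPM in APOE3. Each of these ranges overlapped between the genotypes. Inhibitory neuron genes had a median log2 difference of 0.02 over 6 genes, genes of the hippocampal subfields -0.07 over 5, antigen presentation genes of MHC class I and II -0.02 over 14, and immediate early genes, which follow neuronal activity, -0.11 over 14. All 4 tested oligodendrocyte genes were positive, with a median of 0.12, and 1 of them had an unadjusted p under 0.05. None of these passed in edgeR.

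**Figure D4:**
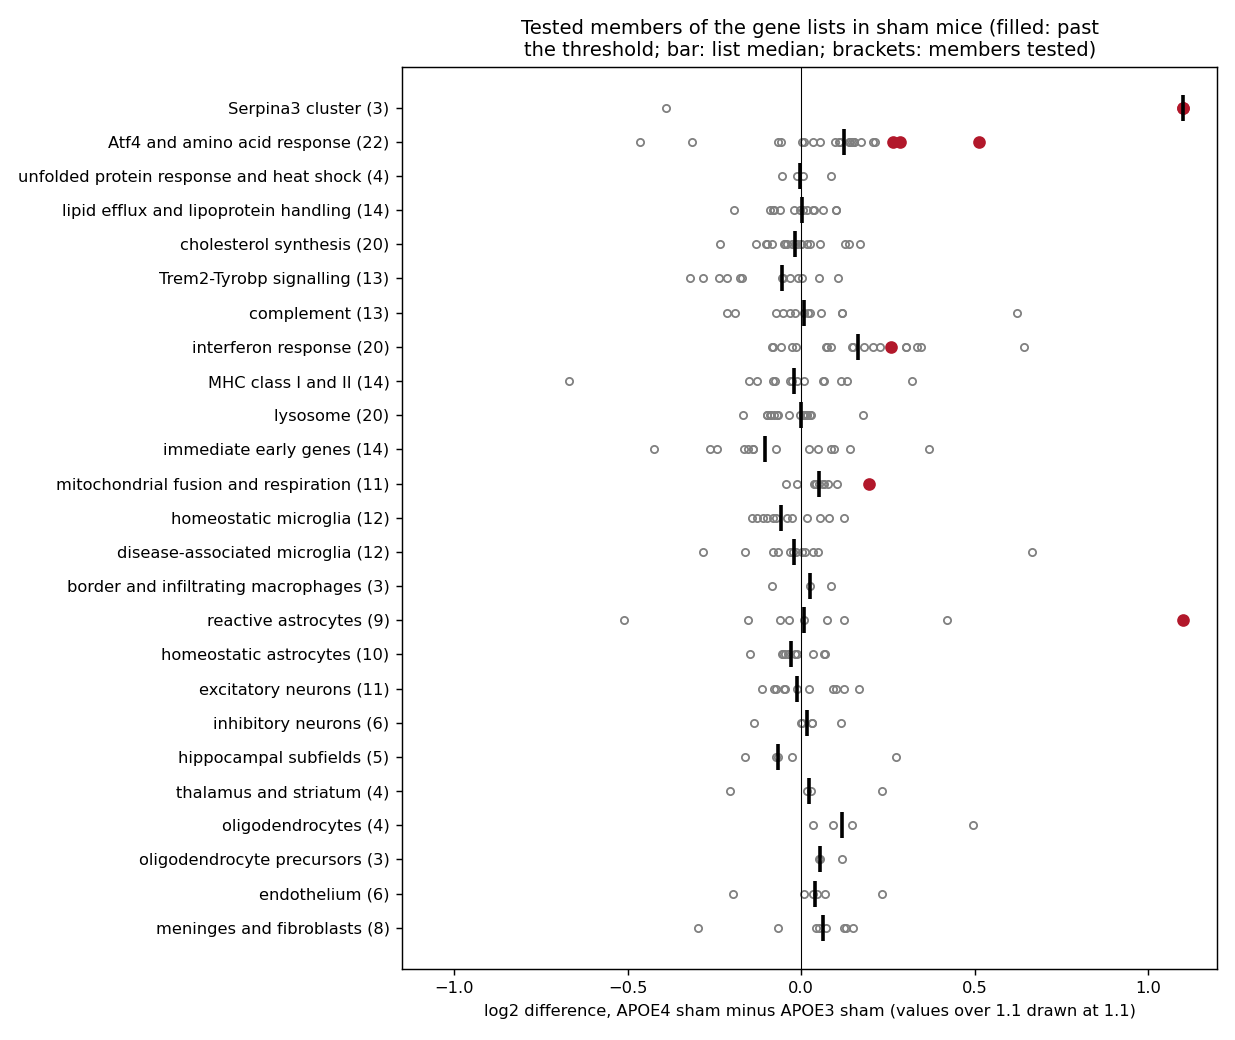
Log2 difference (APOE4 sham minus APOE3 sham, horizontal) of each tested gene of the lists with at least 3 tested members, 1 list per line; filled points passed the threshold, black bars are list medians and values over 1.1 are drawn at 1.1. Filled points occur in the Serpina3, Atf4, interferon, mitochondrial and reactive astrocyte lists, the last with Serpina3n again.

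The same contrast was read in the injured animals, which share no library with the shams. There 11 of the same 5151 genes passed (0.214%), 8 of them among the 23: Serpina3m, Atf4, Pon2, Nudt3, Adar, Ica1, Hrk and Mfn2. These 8 are 34.8% of the sham genes and 72.7% of the injured genes. All 23 had the same sign after injury, against 64.1% of all tested genes, and 18 of 23 also had an unadjusted p under 0.05 there, against 7.57% of all tested genes with both and 8.58% with that p in either direction. Pon2 had a log2 difference of -0.55 ± 0.08 SE in injured animals (86 to 131 CPM in APOE4, 133 to 197 CPM in APOE3), as in shams. Atf4 had 0.45 ± 0.06 SE, Nudt3 0.29 ± 0.04 SE and Adar 0.30 ± 0.05 SE after injury (edgeR adjusted p of 0.000763, 0.00372 and 0.0117). Inpp5f, Vipr2 and Hr passed in injured animals and not in shams. Leaving out 1 injured animal gave 4 to 14 genes, and 4 to 8 of the 23. The total was 4 without APOE3 TBI replicate 3, 5 without APOE3 TBI replicate 2 or 4 or APOE4 TBI replicate 2, 6 without APOE3 TBI replicate 5 or APOE4 TBI replicate 3 or 4, and 7 without APOE3 TBI replicate 1 or APOE4 TBI replicate 1 or 8. Of the 23 signs, 22 were kept without APOE4 TBI replicate 6, where Serpina3n turned, and without APOE4 TBI replicate 4, where Mt3 did. These fits were added after the data were seen.

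Serpina3m and Serpina3n had the widest gaps between the injury states among the 23 genes. After injury Serpina3n's lowest, median and highest levels were 230, 330 and 1568 CPM in APOE4 TBI and 229, 377 and 695 CPM in APOE3 TBI, and the genotypes overlapped. The log2 difference was 0.15 ± 0.29 SE in injured animals (edgeR adjusted p = 0.96), against 2.06 ± 0.20 SE in shams. Its sign after injury rests on the highest animal, APOE4 TBI replicate 6. Without that animal the log2 difference was -0.20 ± 0.20 SE, and the medians above also run that way. Serpina3m had 12.3, 16.4 and 75.6 CPM in APOE4 TBI and 1.04, 3.78 and 5.57 CPM in APOE3 TBI, without overlap, a log2 difference of 2.72 ± 0.32 SE (edgeR adjusted p = 0.00057).

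With all 30 animals, the test of genotype by injury itself called 0 of 5408 genes in edgeR, and also 0 in DESeq2 and limma-voom, with 112 genes (2.07%), 96 and 115 at an unadjusted p under 0.05. Over all genes the interaction of Serpina3n, the injured minus the sham log2 difference, was therefore not significant (-1.93 ± 0.42 SE, edgeR unadjusted p = 8.2e-05, adjusted p = 0.443), nor was that of Serpina3m (-2.06 ± 0.66 SE, unadjusted p = 0.00398, adjusted p = 1). Without APOE4 TBI replicate 6, the animal with 1568 CPM of Serpina3n, 1 gene passed the interaction test, Serpina3n itself (-2.30 ± 0.32 SE, edgeR adjusted p = 0.000277), and Serpina3m had an adjusted p of 0.117. Leaving out any 1 of the other 15 injured animals gave 0 genes. Frmd4b was the one further gene on the list of 23 below an unadjusted 0.05 in that edgeR test (-0.24 ± 0.10 SE, unadjusted p = 0.0242). Of the 23 genes, 17 had the larger log2 difference in shams, where they were chosen.

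**Figure D5:**
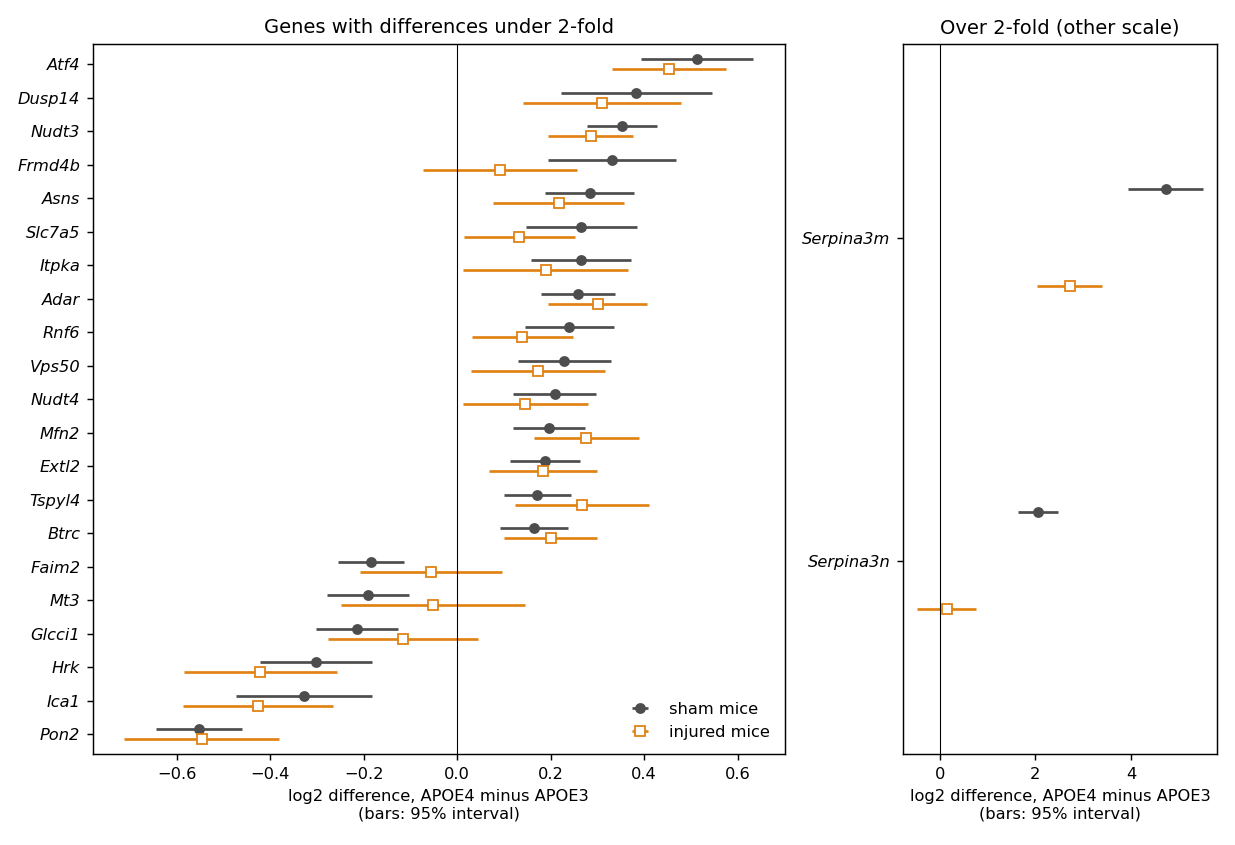
Log2 difference between APOE4 and APOE3 (horizontal, bars give the 95% interval) of the 23 genes in sham mice (filled) and injured mice (open), with Serpina3m and Serpina3n on a wider axis at right. All 23 pairs lie on the same side of 0; the gap between the states is widest for Serpina3m, 4.72 in sham and 2.72 in injured mice, and Serpina3n, 2.06 in sham and 0.15 in injured mice.

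The genotype difference was also set against the letter in the titles. The interaction of genotype and letter among shams called 0 of 5210 genes in edgeR, DESeq2 and limma-voom, with 155 genes (2.98%), 100 and 154 at an unadjusted p under 0.05, and none of the 23 genes among the 155. Serpina3n differed by 2.09 in animals titled M and by 2.02 in animals titled F, and Serpina3m by 4.68 in animals titled M and 4.76 in animals titled F. With 4 against 3 or 3 against 4 animals, each letter alone gave 4 genes past the threshold, 3 higher and 1 lower.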

How the data were processed

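RNA-seq libraries of 32 mice were read from 1 deposited table. The authors deposited raw read counts per gene, whole numbers without normalization, beside their own log2 coefficient and p-value for TBI against sham, per the file headers. In the authors' deposited table the highest p-value was 0.0502 and 6 of 5582 genes lay above 0.05, so the genes were selected on the injury contrast; its columns hold no genotype contrast, whether genotype entered the authors' model is not given in the sources used here, and other genes were not analysed here. Tools listed in the submitters' processing notes are Subread (1.5.0) and edgeR (3.14.0), with genome build mm10. Their roles, the annotation, the strand setting and the treatment of human APOE reads are not given in the sources used here.

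Groups came from the labels, and titles give each library its own animal number. Counts of the 14 sham libraries, filtered by filterByExpr and scaled by TMM, were fitted by edgeR's quasi-likelihood method (edgeR 4.0.16, R 4.3.3) with genotype and title letter as terms. The biological coefficient of variation was 7.86%. The threshold was a Benjamini-Hochberg adjusted p of 0.05 over 5151 genes. SE is the log2 difference over the root of F. Injured animals and both interactions had fits of their own. Alternatives used DESeq2 1.42.0, limma-voom (limma 3.58.1), other scaling, filters, covariates, subsets and thresholds, and left out each animal in turn. The pipeline was tested on simulated data. A total of 13 symbols turned into dates were restored, and 5557 identifiers matched RefSeq (GRCm38.p6). Any gene past the threshold could be named, with Apoe, Trem2, Tyrobp, the Serpina3 genes and up to 4 members per list. The comparison, gene lists and tests were chosen with earlier results of these data known.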

Additional observations from a re-analysis of the deposited data

Results flagged for a closer look

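Among 54 sets of 7 sham values (27 named genes in 2 genotypes), 3 had 1 animal far from the others by Dixon's ratio of its gap to the whole range, where chance gives about 2.7. Gap and range were taken on the log2 scale, so the ratios differ somewhat from those of the CPM values given here. For Vps50 the lowest APOE4 animal, replicate 2, had 181 CPM and the next 195 CPM (ratio 0.578). For Mt3 the lowest APOE4 animal, replicate 1, had 246 CPM and the next 273 CPM (ratio 0.605). For Trem2 the highest APOE3 animal, replicate 7, had 22.8 CPM and the next 19.2 CPM (ratio 0.687).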

How the results depend on the processing

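No paired analysis was possible because no label gives a replicate number that groups share, and the numbers used here follow accession order. All 23 genes kept their sham sign in all 25 sham refits. The count of 23 genes (17 higher, 6 lower) became 66 (39 and 27) with DESeq2, 12 (9 and 3) with all 30 libraries in 1 model, 13 (11 and 2) in shallow and 8 (6 and 2) in deep libraries, 4 (3 and 1) in animals titled M and 4 (3 and 1) in those titled F, 7 (6 and 1) at a threshold of 0.01 and 53 (36 and 17) at 0.1. Lower genes numbered 12 with total-count scaling, 11 with limma-voom and 11 with the depth class added, of 30, 30 and 32 in all. Leaving out 1 animal gave 7 to 35 genes, 6 to 23 higher and 1 to 12 lower. The injured count of 11 became 20 with DESeq2 and 4 to 14 with 1 injured animal left out, which gave 0 to 1 interaction genes. Over these added fits the injured Serpina3n difference ran from -0.204 to 0.314. The cause of these moves was not tested; the subsets hold fewer animals. DESeq2 gave Serpina3m no adjusted p. Total-count scaling shifted the median of all genes by -0.00.

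Apoe, Trem2 and Serpina3g changed sign in some refits. Apoe had 0.0056 with all 30 libraries in 1 model, 0.00447 in animals titled M, 0.0403 in shallow libraries and -0.0638 to 0.0371 with 1 animal left out. Trem2 had -0.00255 with total-count scaling, -0.00453 with no title letter, -0.00382 in shallow libraries, -0.0900 in animals titled F and -0.0414 to 0.0530 with 1 animal left out. Serpina3g had 0.26 in animals titled M. None passed the threshold in any refit. Serpina3f and Serpina3i rest on few counts.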

Other observations

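For animal E2073 the title says sham where the description says TBI, and for F1372 the title gives APOE3 where the description gives APOE4. Neither library was placed in a group. E2073 had 7.95 CPM of Serpina3m, 239 CPM of Serpina3n, 83.3 CPM of Pon2 and 144 CPM of Atf4. F1372 had 0.313 CPM of Serpina3m, 54.4 CPM of Serpina3n, 99.1 CPM of Pon2 and 126 CPM of Atf4. Of the 23 genes, E2073 lay within the range of the APOE4 shams for 7 and within that of the APOE3 shams for 5, and F1372 for 14 and 7.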
